A study of Mus musculus with 24 samples.

Results

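Messenger RNA levels of 10 genes for small GTPases and RGS proteins (regulators of G protein signalling) were followed in mouse liver after an injection of MitoCDNB. The genes were Rasd1 of the Ras family, Rhob, Rnd1 and Rnd3, which act on the actin cytoskeleton, Arl4a and Arl4d of the ADP-ribosylation factor-like family, and Rgs2, Rgs3, Rgs5 and Rgs16. They were taken by symbol from a table of 24421 genes, and all 10 were among the 13833 genes that passed the filter on low counts. The set was chosen on the difference between MitoCDNB and vehicle at 1 h, seen in earlier results of these data, together with protein family. For these 10 genes the 1 h values, and every comparison that uses the 1 h libraries, are therefore given as a description with no p-value, and only the comparison at 4 h, in other mice, is given as a test. Genes outside the set are given with adjusted p-values at both times, although the lists that hold them were also drawn up with earlier results known.

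RNA with poly(A) tails was sequenced from the medial liver lobe of C57BL/6 mice in 4 groups of 6 libraries. Mice received MitoCDNB at 5 mg/kg or a vehicle containing 0.1% ethanol, and liver was taken 1 h or 4 h later, so that each of the groups vehicle 1 h, MitoCDNB 1 h, vehicle 4 h and MitoCDNB 4 h had its own mice. MitoCDNB is a mitochondria-targeted derivative of the thiol-reactive compound CDNB, made to deplete thiol defences inside mitochondria. The strain, the tissue and the injection were common to all groups, and the labels give no age, sex or hour of collection.

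Small GTPases are switches that are active with GTP bound and inactive with GDP bound, and most need exchange factors and GTPase-activating proteins to move between these states. RGS proteins are GTPase-activating proteins for the alpha subunits of heterotrimeric G proteins and shorten the signal from hormone receptors, which in liver control glucose release and bile flow. Several members of both families, among them Rasd1, Rhob, Rgs2 and Rgs16, have RNAs that are known to be induced within an hour or so by hormones or stress in various cells, and the Rnd proteins do not hydrolyse GTP and are controlled largely by how much protein is made.

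The sequences just upstream of 3 of the genes are shown because these genes had more RNA in the MitoCDNB group at 1 h and yet differ in a short sequence associated with induction by cyclic AMP. Each line holds the 250 bases before the start site on the strand of the gene, from RefSeq on build GRCm38.p6 (mm10), and capitals mark TGACG or its reverse complement CGTCA, the core of the cyclic AMP response element (CRE).
Arl4d (chr11:101665291-101665540, plus strand): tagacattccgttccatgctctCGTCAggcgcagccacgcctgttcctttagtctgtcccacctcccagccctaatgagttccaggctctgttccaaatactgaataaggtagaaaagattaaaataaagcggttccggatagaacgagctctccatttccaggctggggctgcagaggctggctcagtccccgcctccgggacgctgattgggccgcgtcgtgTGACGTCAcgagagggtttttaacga
Rgs2 (chr1:144004150-144004399, minus strand): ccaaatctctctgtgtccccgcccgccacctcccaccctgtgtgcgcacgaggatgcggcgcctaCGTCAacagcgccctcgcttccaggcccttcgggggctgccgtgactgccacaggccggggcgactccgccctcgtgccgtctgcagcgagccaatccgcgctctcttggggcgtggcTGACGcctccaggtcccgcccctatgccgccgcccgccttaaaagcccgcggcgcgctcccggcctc
Rgs16 (chr1:153740103-153740352, plus strand): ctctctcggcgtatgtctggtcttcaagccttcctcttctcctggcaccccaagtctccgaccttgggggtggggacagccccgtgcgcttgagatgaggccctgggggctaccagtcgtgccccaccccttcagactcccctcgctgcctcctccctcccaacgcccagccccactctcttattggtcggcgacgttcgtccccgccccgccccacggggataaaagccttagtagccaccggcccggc
The Arl4d sequence held the full palindrome TGACGTCA, which starts 26 bases before the start site, and a further CGTCA at 228 bases before it. The Rgs2 sequence held CGTCA at 185 bases and TGACG at 67 bases before the start site, and the Rgs16 sequence held neither. RefSeq windows ran from 250 bases before to 50 bases after a start site. They were found at the positions of 8 of the 10 genes, in 10 windows, and not for Rasd1 and Rnd1. Any window under a symbol of the set but on another chromosome was left out of the 10. The shares over all windows below leave none out.

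Searched on both strands, TGACGTCA was in 1 of these 10 windows and in 1.79% of all 32851 windows of the same length. TGACG, which every TGACGTCA also contains, was in 3 of 10 windows (Arl4a, Arl4d and Rgs2) and in 20.8% of all windows. The AP-1 motif TGANTCA was in 1 window of Arl4a and in 7.81% of all windows, and the TATA motif TATAAA was in 3 windows (Rnd3 and both windows of Rgs3) and in 13.6% of all. The E-box CACGTG was in no window of the set and in 7.15% of all, and the palindromic glucocorticoid response element was in none and in 0.475% of all. These are matches of letters, and no binding was measured.

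Library totals ranged from 25132737 to 37231025 counts, and no 2 libraries of a group agreed within counting noise. Levels are in CPM, counts scaled to a common library total with TMM factors (the trimmed mean of M values), given as mean ± SD over 6 libraries. At 4 h, vehicle replicate 1 and MitoCDNB replicate 2 stood apart from the other libraries of that time. Results at 4 h are also given without this pair for Rasd1, Rnd1, Arl4a, Arl4d and Rgs16. Without the pair 0 of the 10 genes were called at 4 h. At 1 h, replicates 4 to 6 of both groups had a higher sum of 7 brain transcripts (11.6 to 16.5 CPM) than replicates 1 to 3 (6.46 to 10.1 CPM), and 1 h values are also given within each of these sets. Alb, Ttr and the other hepatocyte markers were present in every group, with a summed level of 38100 to 61400 CPM for 8 genes.

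At 1 h, 6 of the 10 genes had more RNA with MitoCDNB and 4 did not differ past the threshold. Rasd1, Rhob, Arl4a, Arl4d, Rgs2 and Rgs16 were 2.09 to 9.66 times the vehicle level, and Rnd1, Rnd3, Rgs3 and Rgs5 were at 0.52 to 0.899 times that level. The first 6 were called by edgeR's quasi-likelihood F test at an adjusted p under 0.05, all of them higher, against 6.57% of all tested genes called in either direction and 2.7% called higher. The same 6 were those whose 6 MitoCDNB values all lay above all 6 vehicle values, against 4.74% of all tested genes whose ranges were apart. Both counts come from the contrast that the set was chosen on and say nothing further about these genes. The median log2 fold change of the 10 genes was 1.2 and that of all tested genes 0.00254.

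**Figure D1:**
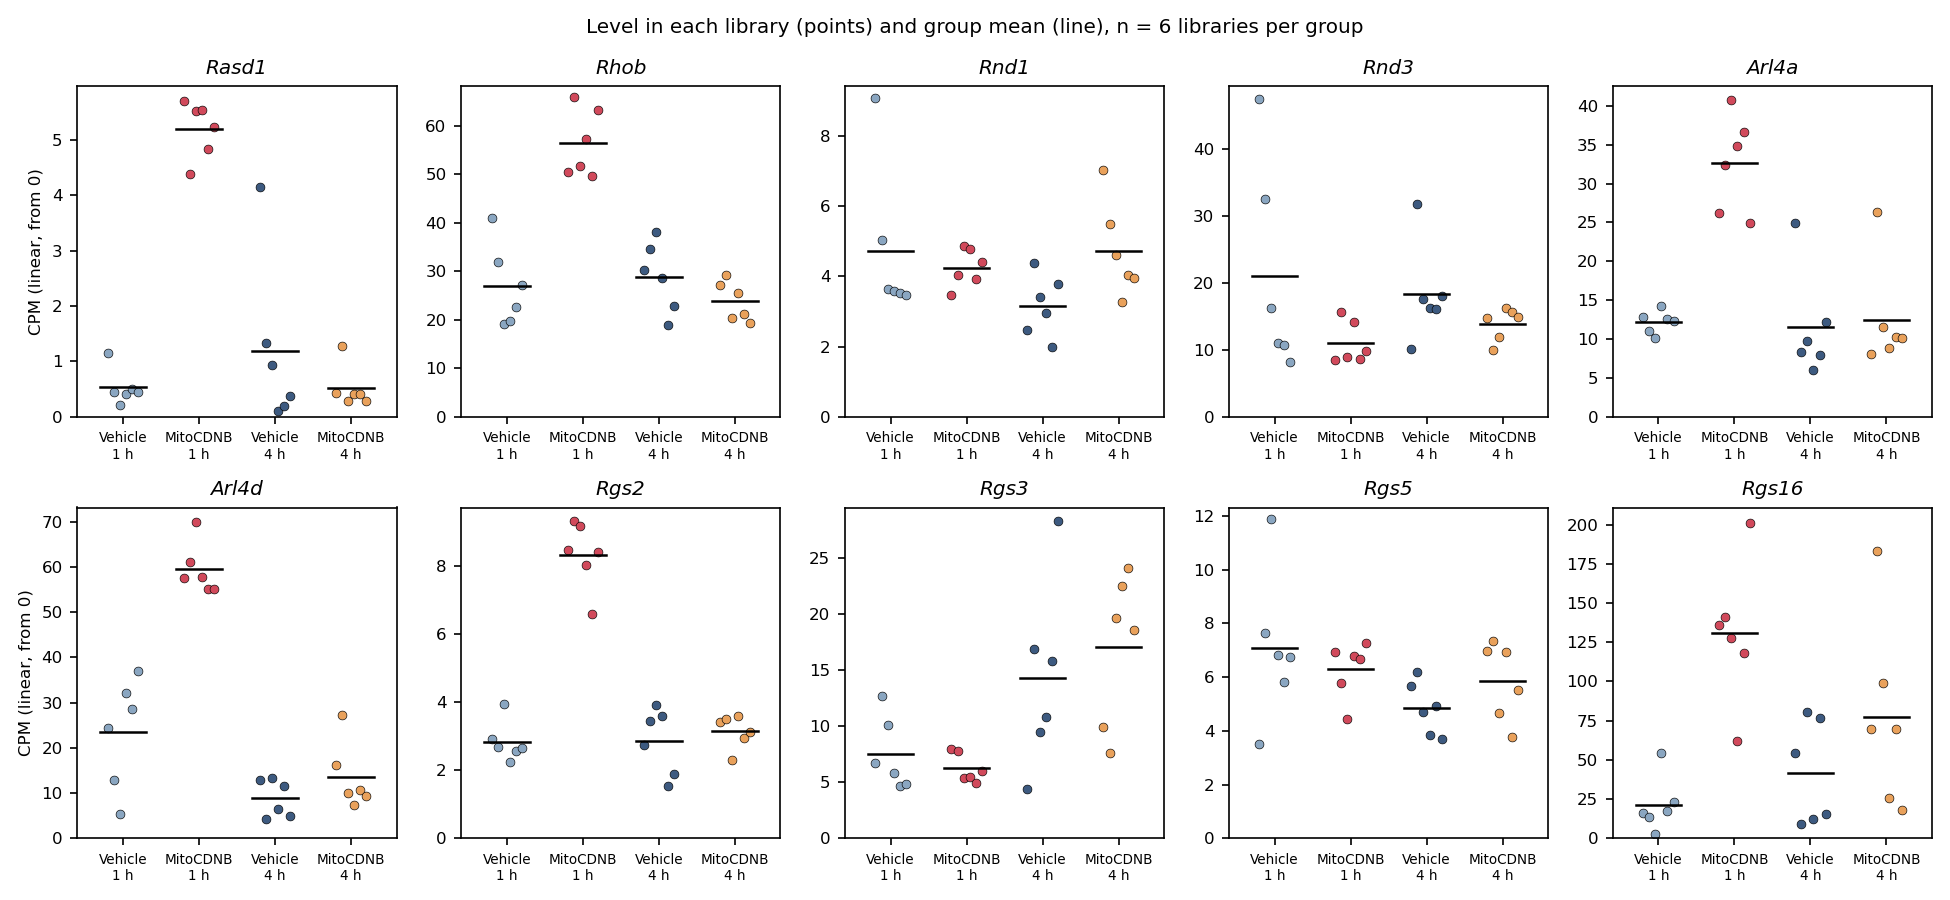
CPM of each of the 10 genes (y axis, linear, starting at 0) by group (x axis, 4 groups), drawn as points for single libraries (n = 6 per group) and a line at the group mean. The MitoCDNB 1 h points of Rasd1, Rhob, Arl4a, Arl4d, Rgs2 and Rgs16 lie above all vehicle 1 h points, and those of Rnd1, Rnd3, Rgs3 and Rgs5 overlap them.

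Rasd1 (mm10 11:59963181-59964944, minus strand), also called Dexras1 for its induction by dexamethasone, encodes a Ras-like GTPase that dampens signalling from G protein-coupled receptors to adenylyl cyclase. Its level with vehicle at 1 h was 0.207 to 1.15 CPM with a median of 0.454, and with MitoCDNB at 1 h it was 4.39 to 5.69 CPM with a median of 5.38. The lowest MitoCDNB library was thus several times the highest vehicle library, and the MitoCDNB libraries were close to each other, with a coefficient of variation of 9.63%. On the log2 scale the change was 3.27 (SE 0.572), or 9.66-fold, the largest of the 10 genes.
At 4 h the MitoCDNB level was back in the vehicle range. Rasd1 was at 0.112 to 4.14 CPM with vehicle (median 0.658) and at 0.277 to 1.28 CPM with MitoCDNB (median 0.41). Vehicle replicate 1 alone, at 4.14 CPM, came near the level of the MitoCDNB 1 h group, and the next vehicle library was at 1.34 CPM. At 4 h the log2 fold change was -1.17 (95% interval -2.42 to 0.0867, adjusted p = 0.393), it was -0.669 without the pair of libraries that stood apart (adjusted p = 0.571), and it was -0.163 without vehicle replicate 1.

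Rhob (mm10 12:8497661-8500009, minus strand) encodes a small GTPase of endosomes and the plasma membrane with a short-lived RNA and protein. With vehicle at 1 h its level was 19.1 to 41.1 CPM (median 24.9), and with MitoCDNB 49.6 to 65.9 CPM (median 54.5). The groups did not overlap, and vehicle replicate 1, at 41.1 CPM, was the vehicle library nearest to the treated ones. The means were 26.9 ± 8.44 and 56.4 ± 6.92 CPM, a log2 fold change of 1.06 (SE 0.178). At 4 h vehicle libraries held 18.9 to 38.1 CPM (median 29.4) and MitoCDNB libraries 19.4 to 29.3 CPM (median 23.4), and the log2 fold change was -0.28 (95% interval -0.645 to 0.0885, adjusted p = 0.516).

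Rnd1 (mm10 15:98663421-98677461, minus strand) encodes a constantly GTP-bound protein that acts through plexins to loosen adhesion. At 1 h its level was 3.47 to 9.07 CPM with vehicle (median 3.6) and 3.46 to 4.87 CPM with MitoCDNB (median 4.22). The ranges overlapped, and vehicle replicate 1 lay far above the other vehicle libraries, the next of which was at 5.03 CPM. The log2 fold change was -0.15 (95% interval -0.622 to 0.314), and without vehicle replicate 1 it was 0.142.
Rnd1 was the only gene of the 10 with an unadjusted p under 0.05 at 4 h. Vehicle libraries were at 2 to 4.38 CPM (median 3.18) and MitoCDNB libraries at 3.27 to 7.03 CPM (median 4.33), with 6 of 6 MitoCDNB libraries above the vehicle mean and 3 of 6 above every vehicle library. The log2 fold change of 0.58 (SE 0.23) did not pass after adjustment over all genes (adjusted p = 0.236, and 0.416 without the pair of libraries that stood apart).

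Rnd3 (mm10 2:51130438-51149111, minus strand) encodes a constantly GTP-bound protein that inhibits the kinase ROCK1 and so lowers contraction of the actin cytoskeleton. With vehicle at 1 h it was at 8.27 to 47.5 CPM (median 13.6), and with MitoCDNB at 8.55 to 15.7 CPM (median 9.4). The MitoCDNB range lay within the vehicle range, whose upper end was set by replicate 1 at 47.5 CPM and replicate 2 at 32.6 CPM. The log2 fold change was -0.94 (SE 0.358) and was not called, and the ratio of means was 0.345 within replicates 1 to 3 and 1.09 within replicates 4 to 6. At 4 h vehicle libraries were at 10.2 to 31.8 CPM (median 16.9) and MitoCDNB libraries at 9.92 to 16.2 CPM (median 14.8), and the log2 fold change was -0.40 (95% interval -1.14 to 0.336, adjusted p = 0.673).

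Arl4a (mm10 12:40005447-40038025, minus strand) and Arl4d (mm10 11:101665541-101667832, plus strand) encode GTPases that recruit cytohesins, exchange factors for Arf6, to the plasma membrane. Arl4a was at 10.1 to 14.3 CPM with vehicle at 1 h (median 12.4) and at 24.9 to 40.8 CPM with MitoCDNB (median 33.6). Its vehicle libraries were the tightest of the 10 genes at 1 h, with a coefficient of variation of 12.1%, and the groups were far apart. The means were 12.2 ± 1.47 and 32.6 ± 6.12 CPM, a log2 fold change of 1.42 (SE 0.298).
At 4 h a library in each group was high for Arl4a, and these were the libraries that stood apart. Vehicle ran from 6.04 to 24.9 CPM (median 9.03), with replicate 1 highest and the next at 12.2 CPM, and MitoCDNB from 8.06 to 26.4 CPM (median 10.1), with replicate 2 highest and the next at 11.5 CPM. At 4 h the log2 fold change was 0.12 (95% interval -0.5 to 0.741, adjusted p = 0.907), and it was 0.136 without the pair (adjusted p = 0.768). Leaving out MitoCDNB replicate 2 alone turned it to -0.242, and leaving out vehicle replicate 4 alone to -0.0125.

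Arl4d had a broad range with vehicle and a narrow range with MitoCDNB at 1 h. Vehicle libraries were at 5.39 to 37.1 CPM (median 26.5) and MitoCDNB libraries at 55.2 to 69.9 CPM (median 57.7), so that the groups did not overlap. Within the vehicle group, replicates 1 to 3 averaged 14.3 ± 9.59 CPM and replicates 4 to 6 averaged 32.6 ± 4.22 CPM, and the ratio of MitoCDNB to vehicle was 4.4 in the first set and 1.72 in the second. Over all libraries the log2 fold change was 1.34 (SE 0.382). Its call was lost on leaving out any of 9 of the 12 libraries, all but vehicle replicates 4, 5 and 6, with the log2 fold change between 1.14 and 1.52.
At 4 h Arl4d was lower in both groups than at 1 h. Vehicle libraries were at 4.34 to 13.3 CPM (median 8.99) and MitoCDNB libraries at 7.46 to 27.2 CPM (median 10.3), with replicate 2, a library of the pair that stood apart, highest. The fitted change on the log2 scale was 0.60 (95% interval -0.217 to 1.42, adjusted p = 0.533), and 0.402 without the pair (adjusted p = 0.725).

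Rgs2 (mm10 1:143999338-144004161, minus strand) encodes an RGS protein that prefers the alpha subunit Gq, which couples receptors such as those for vasopressin and angiotensin to calcium release. It was at 2.24 to 3.94 CPM with vehicle at 1 h (median 2.68) and at 6.59 to 9.32 CPM with MitoCDNB (median 8.42). The groups did not overlap, and the spread was small in both. The log2 fold change was 1.55 (SE 0.178), and Rgs2 kept its call in every omission of a library and in every other fit that was run. These fits reuse the 1 h libraries on which the set was chosen, so they describe stability and are no independent support. At 4 h it was at 1.53 to 3.91 CPM with vehicle (median 3.1) and at 2.29 to 3.6 CPM with MitoCDNB (median 3.27), with a log2 fold change of 0.14 (95% interval -0.238 to 0.509, adjusted p = 0.804).

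Rgs16 (mm10 1:153740349-153745468, plus strand) encodes an RGS protein acting on Gi and Gq, whose liver RNA is known to vary with feeding and time of day. It was the most variable gene of the 10 with vehicle at 1 h. Vehicle libraries were at 2.45 to 54.7 CPM (median 16.7) and MitoCDNB libraries at 62.1 to 201 CPM (median 132). The groups did not overlap, but the margin was small, since vehicle replicate 4 at 54.7 CPM and MitoCDNB replicate 4 at 62.1 CPM were the neighbouring libraries. Fitted over all libraries, the log2 fold change was 2.63 (SE 0.679, 95% interval 1.21 to 4.05). Within replicates 1 to 3 the ratio of means was 12.6 and within replicates 4 to 6 it was 4.02, and the call was lost within both sets and without vehicle replicate 2 (log2 fold change 2.53).
At 4 h Rgs16 spread widely in both groups. Of the vehicle libraries 3 were at 54.7 to 80.6 CPM and 3 at 9.21 to 15.4 CPM, and MitoCDNB libraries ran from 17.8 to 183 CPM (median 69.8). The log2 fold change was 0.90 (95% interval -0.437 to 2.25, adjusted p = 0.578), and 0.54 without the pair that stood apart (adjusted p = 0.797). In mm10 an antisense gene, Gm28513, covers 1835 of the 2339 exon bases of Rgs16, and reads of the 2 strands cannot be told apart with a library kit that does not mark strand.

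Rgs3 (mm10 4:62559847-62704001, plus strand) encodes an RGS protein for Gi and Gq with many isoforms. At 1 h it was at 4.7 to 12.7 CPM with vehicle (median 6.28) and at 4.96 to 7.95 CPM with MitoCDNB (median 5.73), and the ranges overlapped. The difference on the log2 scale was -0.26 (95% interval -1.02 to 0.506). At 4 h vehicle libraries were at 4.39 to 28.3 CPM (median 13.3) and MitoCDNB libraries at 7.61 to 24.1 CPM (median 19.1), and the log2 fold change was 0.26 (95% interval -0.466 to 0.987, adjusted p = 0.805). The antisense gene Gm11209 covers 197 of its 10801 exon bases.

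Rgs5 (mm10 1:169655501-169695813, plus strand) encodes an RGS protein best known from pericytes and vascular smooth muscle. At 1 h its level was 3.51 to 11.9 CPM with vehicle (median 6.79) and 4.43 to 7.29 CPM with MitoCDNB (median 6.75). The medians were nearly equal, and both extremes belonged to the vehicle group, replicate 1 being lowest and replicate 3 highest. The log2 fold change was -0.16 (95% interval -0.59 to 0.274), and it was 0.0512 without vehicle replicate 3. At 4 h Rgs5 was at 3.71 to 6.2 CPM with vehicle (median 4.81) and at 3.79 to 7.35 CPM with MitoCDNB (median 6.23), with a log2 fold change of 0.28 (95% interval -0.158 to 0.72, adjusted p = 0.604).

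**Figure D2:**
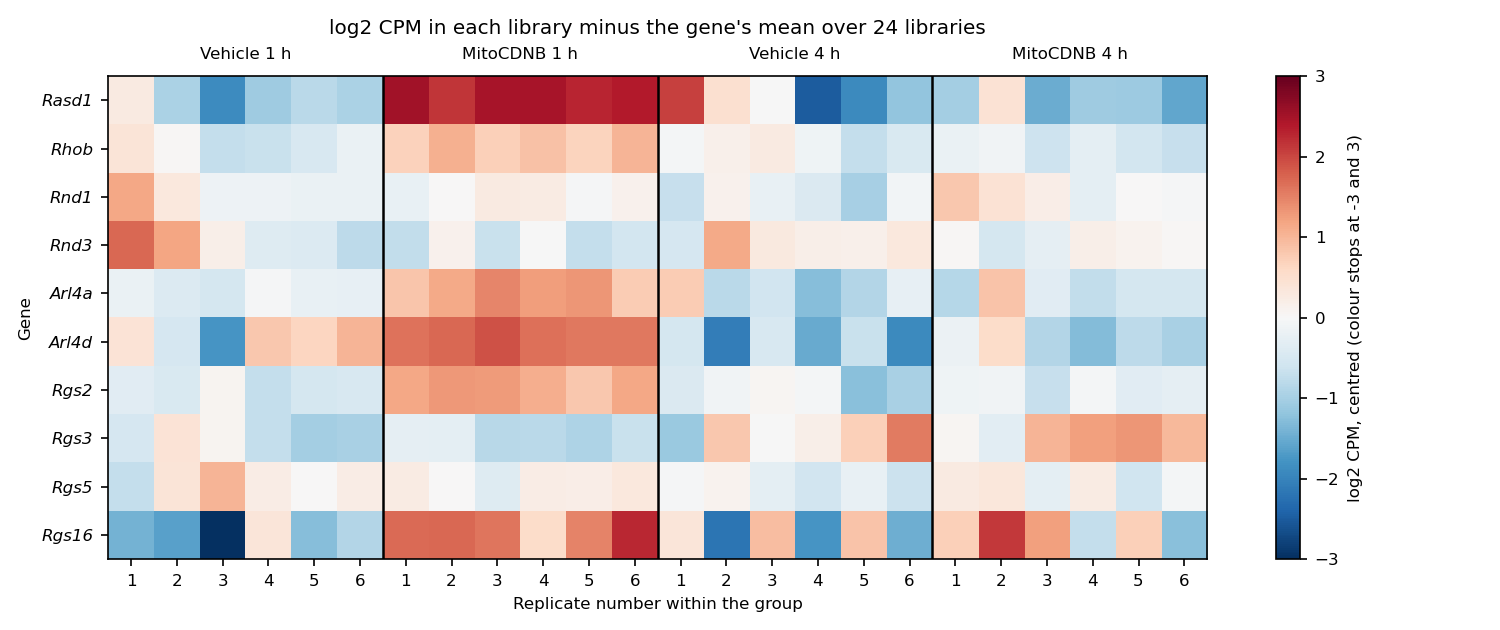
Level of each gene (rows) in each of the 24 libraries (columns, grouped, with the replicate number below) as log2 CPM minus the mean of the gene over all libraries, with colours ending at -3 and 3. The MitoCDNB 1 h columns are red for Rasd1, Rhob, Arl4a, Arl4d, Rgs2 and Rgs16, and single libraries stand out elsewhere, such as Rnd3 in vehicle replicate 1 at 1 h (47.5 CPM) and Rasd1 in vehicle replicate 1 at 4 h (4.14 CPM).

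Within both sets of 1 h libraries the 6 genes kept MitoCDNB ranges apart from and above the vehicle ranges. This had to be so, since the ranges of the whole 1 h groups were apart, and it is no further result. Between replicates 1 to 3 and 4 to 6 the ratio of means was 8.62 and 11.4 for Rasd1, 1.83 and 2.45 for Rhob, 2.93 and 2.46 for Arl4a, and 2.82 and 3.08 for Rgs2. In fits within a set that kept the 4 h libraries, 1 of the 10 genes was called in replicates 1 to 3 (Rgs2) and 2 in replicates 4 to 6 (Rhob and Rgs2), where only 3 libraries a group remained. Without the 4 h libraries the counts were 3 and 5. Rnd1 was at a ratio of 0.698 in the first set and 1.24 in the second, where the MitoCDNB range lay above the vehicle range. Rnd3 had its MitoCDNB range below the vehicle range in the first set (32.1 ± 15.6 CPM with vehicle and 11.1 ± 3.98 CPM with MitoCDNB) and overlapping ranges in the second. The ratio was 0.715 and 1.07 for Rgs3 and 0.744 and 1.07 for Rgs5, with overlapping ranges in both sets.

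At 4 h none of the 10 genes was called by edgeR, against 0.824% of all tested genes, 1 had an unadjusted p under 0.05, and DESeq2 called none. No gene of the 10 had separate ranges at 4 h, against 0.896% of all tested genes. The log2 fold changes ran from -1.17 (Rasd1) to 0.90 (Rgs16), with 3 genes below 0 and 7 above, and the median was 0.198 against -0.0044 for all tested genes. The 95% intervals were wide for Rasd1 and Rgs16 and narrow for Rhob and Rgs2. For Rhob the upper bound at 4 h of 0.0885 lay below the lower bound at 1 h of 0.697, and for Rgs2 0.509 lay below 1.19. The 1 h bounds come from the contrast that the set was chosen on, so setting them side by side is a description and no test. The count of called genes over the whole table at 4 h was 114 and moved to 412 without vehicle replicate 1, while the count for the 10 genes was 0 in each omission of a library.

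**Figure D3:**
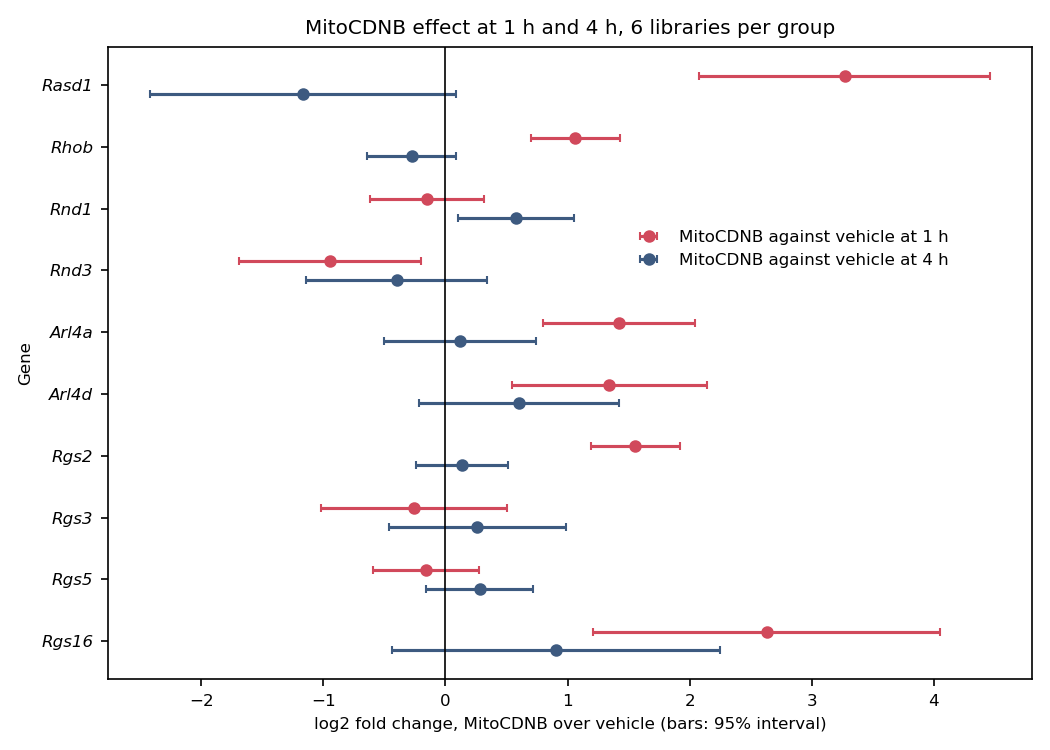
Log2 fold change of MitoCDNB over vehicle (x axis, with 95% intervals as bars) for each of the 10 genes (y axis) at 1 h (red) and 4 h (blue), 6 libraries per group. At 1 h the intervals of Rasd1, Rhob, Arl4a, Arl4d, Rgs2 and Rgs16 lie above 0 and that of Rnd3 below it, and at 4 h the interval of Rnd1 alone excludes 0.

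The difference between the effects at the 2 times (4 h minus 1 h) was called for 3 of the 10 genes, against 4.07% of all tested genes. It was -4.44 (SE 0.83) for Rasd1, -1.34 (SE 0.251) for Rhob and -1.42 (SE 0.253) for Rgs2 on the log2 scale, so the effect was smaller at 4 h in each. Without vehicle replicate 1 of 4 h the Rasd1 difference was -3.43. The values for Arl4a (-1.30), Rgs16 (-1.73) and Arl4d (-0.74) were below 0 and not called, and Arl4a was called without MitoCDNB replicate 2 of 4 h (-1.66), without the pair that stood apart (-1.28) and by DESeq2. This difference contains the 1 h contrast and shares its libraries with the time comparisons below.

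Between 1 h and 4 h with MitoCDNB, 6 of the 10 genes were called, against 28.5% of all tested genes, and 5 of them were lower at 4 h, against 13.4% of all. Rasd1 went from 5.2 ± 0.501 to 0.517 ± 0.381 CPM, Rhob from 56.4 ± 6.92 to 23.8 ± 4.04, Arl4a from 32.6 ± 6.12 to 12.5 ± 6.92, Arl4d from 59.5 ± 5.53 to 13.5 ± 7.35 and Rgs2 from 8.33 ± 0.984 to 3.14 ± 0.484 CPM. For 4 of them (all but Arl4a) the ranges of the 2 times were apart, against 13.1% of all tested genes. Rgs3 went the other way, from 6.25 ± 1.3 to 17.1 ± 6.76 CPM (log2 fold change 1.45). Rgs16 was at 131 ± 44.7 CPM at 1 h and 77.7 ± 60 CPM at 4 h, with overlapping ranges and no call. The set was chosen partly on high values in these MitoCDNB 1 h libraries, which favours a fall from 1 h. The counts set beside all tested genes are therefore a description.

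The comparison of the vehicle groups uses vehicle 1 h libraries on which the set was chosen, so its calls are a description. Between the vehicle groups, 1 of the 10 genes was called, against 5.44% of all tested genes. It was Arl4d, which went from 23.5 ± 12 CPM at 1 h to 8.88 ± 4.12 CPM at 4 h (log2 fold change -1.40, SE 0.394). Its call was lost on leaving out any of 8 of the 12 libraries, namely vehicle replicates 1, 4, 5 and 6 of 1 h and 2, 4, 5 and 6 of 4 h, with the log2 fold change between -1.61 and -1.22. No gene of the 10 had separate ranges here, against 2.5% of all tested genes. Rgs3 was at 7.48 ± 3.22 CPM at 1 h and 14.3 ± 8.24 CPM at 4 h in vehicle mice, a log2 fold change of 0.93 that was not called with all libraries and was called without the pair that stood apart (1.11). Rgs5 was at 7.08 ± 2.75 and 4.84 ± 0.983 CPM, a log2 fold change of -0.55 that was called only without vehicle replicate 1 of 1 h (-0.687). In the sample titles all 4 h libraries carry lower library numbers than all 1 h libraries. Time after injection, hour of collection and library number cannot be told apart in the comparisons between times.

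In the order of group means, MitoCDNB 1 h was the highest group for Rasd1, Rhob, Arl4a, Arl4d, Rgs2 and Rgs16. It was separate from the next group for Rasd1 (vehicle 4 h), Rhob (vehicle 4 h), Arl4d (vehicle 1 h) and Rgs2 (MitoCDNB 4 h), and it overlapped the next group, MitoCDNB 4 h, for Arl4a and Rgs16. All other neighbours in the order overlapped in all 10 genes. The highest group mean was 10 times the lowest for Rasd1, 6.7 times for Arl4d, 6.19 times for Rgs16, 2.94 times for Rgs2, 2.83 times for Arl4a and 2.37 times for Rhob. For Rgs3 the order ran from MitoCDNB 1 h to MitoCDNB 4 h over a 2.73-fold range, and for Rnd3, Rnd1 and Rgs5 the range was 1.92, 1.5 and 1.46.

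Per kb of exon, the levels of the 10 genes with vehicle at 1 h ran from 0.33 CPM per kb for Rasd1 and 0.693 for Rgs3 up to 17 for Arl4d, 11.5 for Rhob and 9.06 for Rgs16. With MitoCDNB at 1 h Rgs16 was first at 56 ± 19.1 CPM per kb, followed by Arl4d at 43.1 ± 4 and Rhob at 24 ± 2.95. Rasd1, with the largest fold change, reached 3.23 ± 0.311 CPM per kb. Rgs2 reached 2.3 ± 0.271 and Arl4a 4.23 ± 0.795 CPM per kb, so that genes of low and of high level were both among the 6.

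Single libraries were high for several of the genes at once. Vehicle replicate 1 at 1 h was the highest of its group for 4 of the 10 genes (Rasd1, Rhob, Rnd1 and Rnd3), and MitoCDNB replicate 2 at 4 h was the highest of its group for 6. Vehicle replicate 3 at 1 h was the lowest of its group for 5 genes. MitoCDNB libraries at 1 h were more alike than vehicle libraries at 1 h for 9 of the 10 genes in coefficient of variation, the exception being Arl4a at 18.8% against 12.1%.

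Relatives of these genes were grouped in lists by family. Of all tested genes, 6.57% were called at 1 h and 0.824% at 4 h. The lists are too short for their counts to be set above or below these shares, and this was not tested. The genes followed here were chosen on their 1 h difference, so their own calls are no standard for the lists. Among 17 other RGS genes 7 were tested, and 1 was called at 1 h. That was Rgs1, an RGS gene of immune cells, which rose from 0.98 ± 0.944 to 4.24 ± 0.86 CPM (log2 fold change 2.09, SE 0.608, adjusted p = 0.0406). Of its MitoCDNB libraries, 6 of 6 lay above the vehicle mean. The adjusted p of Rgs1 went up to 0.0904 on leaving out single libraries, with the call lost for 9 of the 12 (all but vehicle replicates 1 and 2 and MitoCDNB replicate 5). At 4 h edgeR and DESeq2 called 0 of the 7 and 0 had an unadjusted p under 0.05, and the gene with the smallest p was Rgs9 (log2 fold change -0.53, adjusted p = 0.468).

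Of 25 other ARF and ARL GTPases 22 were tested, none of them called by edgeR at either time, while 3 at 1 h and 4 at 4 h had an unadjusted p under 0.05. The smallest p at 1 h was that of Arl5b, a Golgi GTPase, at 10.3 ± 2.31 and 14.9 ± 1.93 CPM (log2 fold change 0.54, adjusted p = 0.0509), which DESeq2 called. At 4 h it was that of Arl1 (log2 fold change -0.18, adjusted p = 0.203), and DESeq2 called 0. The list's median log2 fold change was 0.0421 at 1 h, where Arl4a and Arl4d were at 1.42 and 1.34. Arl4a and Arl4d were chosen on this 1 h difference, so the values are a description.

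Of 29 other Ras, Rap and RGK GTPases 23 were tested. At 1 h edgeR called 0, and the unadjusted p was under 0.05 for 1 gene, Rap2b at 1.89 ± 0.372 and 1.05 ± 0.257 CPM (log2 fold change -0.84, adjusted p = 0.0598), which DESeq2 called lower. At 4 h Nras fell from 13.2 ± 0.479 to 11 ± 0.191 CPM (log2 fold change -0.26, SE 0.0526, adjusted p = 0.0142). Of its MitoCDNB libraries, 6 of 6 lay below the vehicle mean. Nras was not called in the fit on the 4 h groups alone. Of the 23 genes, 6 had an unadjusted p under 0.05 at 4 h, and DESeq2 called Nras and Rap1b lower. By edgeR Rap1b was at a log2 fold change of -0.227 (adjusted p = 0.0766). The median of the list was 0.023 at 1 h and -0.0913 at 4 h.

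Upstream of the RGS proteins, values are given for 3 receptor genes. Avpr1a, the hepatic vasopressin receptor, which acts through Gq, rose at 1 h from 16.8 ± 4.62 to 25.5 ± 4.91 CPM (log2 fold change 0.60, adjusted p = 0.0296). Of its MitoCDNB libraries, 6 of 6 lay above the vehicle mean. The call of Avpr1a was lost on leaving out any of 8 libraries (all but vehicle replicates 3 and 5 and MitoCDNB replicates 1 and 6). The adjusted p then went up to 0.0766. At 4 h the log2 fold change of Avpr1a was 0.55 (adjusted p = 0.117), which edgeR did not call and DESeq2 called higher. The endothelin receptor gene Ednrb rose at 4 h from 5.14 ± 0.744 to 9.47 ± 1.77 CPM (log2 fold change 0.88, adjusted p = 0.00327). Gcgr, the glucagon receptor, was at a log2 fold change of -0.0102 at 1 h (adjusted p = 0.968); it was chosen after its values were seen.

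Of 13 heterotrimeric G alpha subunits, the substrates of the RGS proteins, 11 were tested, and edgeR and DESeq2 called 0 at either time, with 0 at 1 h and 2 at 4 h at an unadjusted p under 0.05. The smallest p was that of Gnaq at 1 h (log2 fold change 0.16, adjusted p = 0.342) and of Gnai3 at 4 h (-0.14, adjusted p = 0.224). Of 14 adenylyl cyclases and phospholipases C beta, which the G proteins control, 11 were tested. Adcy1 rose at 1 h from 0.878 ± 0.275 to 3.44 ± 0.755 CPM (log2 fold change 1.96, adjusted p = 0.0134). Its log2 fold change at 4 h was 1.40 (adjusted p = 0.169), called by neither edgeR nor DESeq2. At 4 h Adcy4 rose from 4.23 ± 0.623 to 5.87 ± 0.19 CPM (log2 fold change 0.47, adjusted p = 0.013) and Plcb4 from 1.36 ± 0.338 to 2.36 ± 0.383 CPM (log2 fold change 0.80, adjusted p = 0.0321). The Plcb4 call was lost without any of vehicle replicates 2, 3 and 4 and MitoCDNB replicates 2, 3, 4 and 5, with an adjusted p of up to 0.0749, and neither Adcy4 nor Plcb4 was called in the fit on the 4 h groups alone. In fits within the sets of 3 libraries of 1 h that kept the 4 h libraries, Adcy1, Rgs1 and Avpr1a were not called. Fits within the sets without the 4 h libraries were added after seeing the data. In these Adcy1 was called in both sets, Rgs1 in replicates 4 to 6, and Avpr1a in neither.

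Of 20 partners and effectors of the GTPases, among them the ROCK kinases, the plexins and the cytohesins, 18 were tested, and edgeR and DESeq2 called 0 at either time, with 1 at 1 h and 3 at 4 h at an unadjusted p under 0.05. The smallest p was that of the plexin gene Plxna1 at 1 h (log2 fold change -0.35, adjusted p = 0.0765) and of Arhgap35, which encodes a GTPase-activating protein, at 4 h (-0.26, adjusted p = 0.132).

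**Figure D4:**
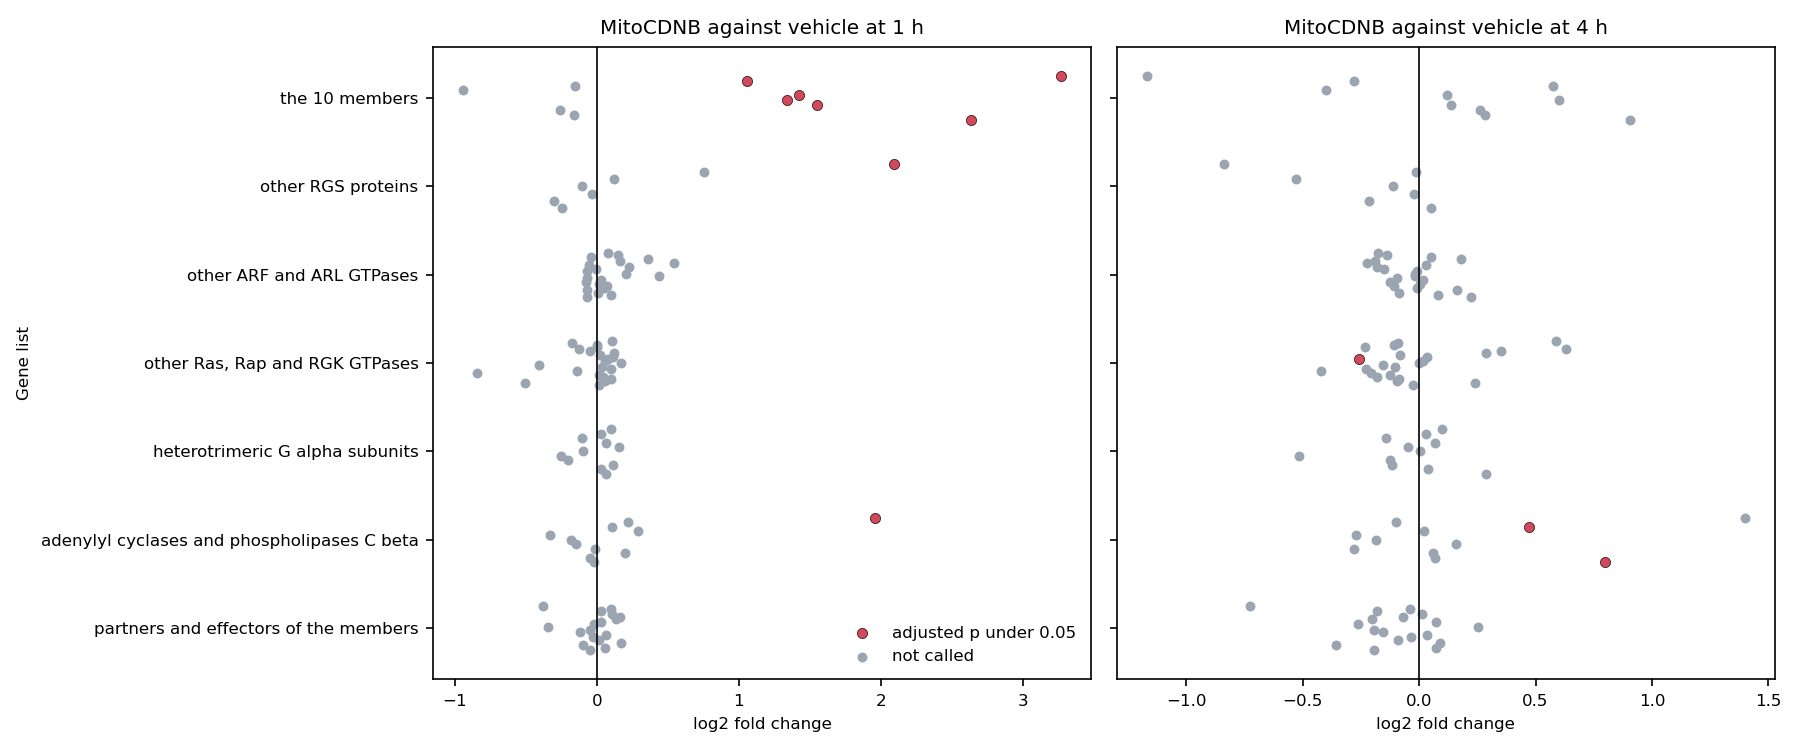
Log2 fold change of MitoCDNB over vehicle (x axis) at 1 h (left) and 4 h (right) for the tested genes of each list (y axis), with a point per gene, in red where the adjusted p was under 0.05. At 1 h 6 of the 10 genes described here are red and above 1, and the 6 lists of relatives and effectors hold 2 red points together (Rgs1 and Adcy1). The 10 genes were chosen on the 1 h difference, so these counts are a description and no comparison.

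Bulk RNA cannot tell fewer cells of a type from less RNA per cell. Neutrophil markers moved with the 1 h groups. The summed level of the 4 measured markers of 5 (S100a8, S100a9, Cxcr2 and Retnlg) was 1.83 to 6.22 CPM with vehicle and 7.05 to 11.2 CPM with MitoCDNB at 1 h, and none was at 0 in a group. Of these 4, edgeR called 0, 3 had an unadjusted p under 0.05, and DESeq2 called S100a8 and S100a9 higher. Their part in the 1 h levels of Rgs1, Rgs2 and the other 5 genes was not tested. At 4 h the same sum was 0.466 to 5.05 CPM with vehicle and 0.59 to 1.93 CPM with MitoCDNB.

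Of the other cell types, endothelial markers had a summed level of 217 to 262 CPM with vehicle and 223 to 276 CPM with MitoCDNB at 1 h, with 0 of 8 called by either tool and 0 at an unadjusted p under 0.05. At 4 h the sums were 223 to 248 and 190 to 217 CPM, and 4 of 8 (Kdr, Clec4g, Oit3 and Ehd3) fell. DESeq2 called the same 4 lower and Cdh5 higher, and by edgeR Cdh5 was at a log2 fold change of 0.361 (adjusted p = 0.0711) and Pecam1 at 0.0989 (adjusted p = 0.678). For Rgs5, the pericyte and smooth muscle markers had sums of 27.6 to 45.8 and 34.9 to 60.7 CPM at 1 h and of 27 to 45.3 and 34 to 56.2 CPM at 4 h, with 0 of 8 called by either tool at either time and 0 and 2 at an unadjusted p under 0.05. Kupffer cell markers had sums of 191 to 263 and 208 to 252 CPM at 1 h, with 0 of 6 called by edgeR or DESeq2 and 0 at an unadjusted p under 0.05. At 4 h they were at 155 to 480 CPM with vehicle and 143 to 219 CPM with MitoCDNB, where edgeR and DESeq2 called 0 of 6, 4 had an unadjusted p under 0.05, and the median log2 fold change was -0.436. DESeq2 gave no adjusted p for 2 of the 6 at either time. Stellate cell markers had sums of 143 to 205 and 186 to 295 CPM at 4 h, where edgeR called 0 of 7, 5 had an unadjusted p under 0.05, DESeq2 called Ecm1 higher, and the median log2 fold change was 0.331. At 1 h the stellate sums were 141 to 235 and 185 to 223 CPM, neither tool called a marker, and 0 had an unadjusted p under 0.05. The part of these cell types in the 4 h values of the 10 genes was not tested. Cholangiocyte markers had sums of 4.6 to 6.58 CPM with vehicle and 3.38 to 18.9 CPM with MitoCDNB at 1 h, highest in replicate 1, where edgeR called 0 of 4, 3 had an unadjusted p under 0.05, and DESeq2 called Krt19. Of the 8 hepatocyte markers, edgeR called 0 at 1 h and Cps1 alone at 4 h (log2 fold change 0.448, adjusted p = 0.0142). DESeq2 called Apoa1 higher at 1 h and Cps1 higher at 4 h.

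The genes whose pattern over the 24 libraries was most like each of the 10 were found by the root mean square difference of centred log2 CPM among 11129 genes. For Rhob the nearest was Klf6, an immediate-early zinc finger factor (0.216, against 0.573 for the spread of Rhob itself), followed by Pvr (0.265) and Stk17b (0.272). For Rasd1 the nearest were Btg2 (0.788), Itprip (0.803) and the AP-1 gene Fosl2 (0.812), against a spread of 1.65. Arl4d was nearest to Frmd4b (0.428), the glucose-6-phosphatase gene G6pc (0.575) and the kinase gene Sgk1 (0.603), against a spread of 1.26. All these values are in log2 units and describe likeness across the same libraries.
Arl4a was nearest to Apbb3 (0.317), Slc25a33 (0.325) and Lpin2 (0.349), and Rgs2 to Tmcc3 (0.3), the actin gene Actg1 (0.321) and Elmsan1 (0.325). Rgs5 was nearest to Ston1 (0.29), the guanylate cyclase gene Gucy1b3 (0.299) and the endothelin receptor gene Ednra (0.3), against a small spread of its own of 0.4. Rnd1 was nearest to Proser2 (0.334), Entpd1 (0.335) and Adcy4 (0.346), Rnd3 to P4ha2 (0.396), Dnajb1 (0.417) and Zfp809 (0.432), and Rgs3 to Lonrf1 (0.428), Zfp428 (0.434) and Nhlrc1 (0.458). No gene was near Rgs16, for which the best were Epha2 (1.11), Zbtb7c (1.12) and Gadd45b (1.12) against a spread of 1.59. Within the set the closest pair was Rhob and Rgs2 (0.369), followed by Rhob and Arl4a (0.56).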

How the data were processed

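The deposited table holds counts per gene symbol for 24 libraries, whole numbers with a different total in each. The submitters' processing notes name build mm10 and the tools HISAT2, Trim Galore, DESeq2 and CASAVA (1.8.4). How reads were counted, and on which annotation, is not given in the sources used here. The library kit named in the labels does not mark strand. From these deposited counts, genes were kept with filterByExpr (minimum count 10, minimum total 15), which removed 0.0306% of counts. TMM-scaled counts of the 4 groups were fitted together over all 24 libraries in edgeR 4.0.16 (R 4.3.3, limma 3.58.1). The robust quasi-likelihood F test was used, with Benjamini-Hochberg adjustment over 13833 genes and calls at an adjusted p under 0.05. The SE comes from the log2 fold change and F, and the common biological coefficient of variation was 0.179. The fit was tested on simulated data.

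The 10 genes, the lists of relatives and markers and the comparisons were chosen with earlier results of these data known. Named genes were all 10 of the set, up to 4 called genes of each list per treatment comparison (or the gene with the smallest p where none was called), and the 3 genes most alike to each of the 10 (mean of at least 1 CPM, no predicted genes). Gene positions and exon lengths come from GENCODE M21 on mm10 and upstream sequences from RefSeq. Replicates are mice per the labels' protocol. Alternatives were median-ratio size factors, no filter, a filter at 1 CPM, no robust estimation, DESeq2 1.42.0, a block for replicate number, the compared groups alone, single omissions, and fits without the 4 h pair that stood apart or within sets of 1 h libraries. The last kind without the 4 h libraries, and the brain sum without Slc1a2 (also made by hepatocytes), were added after seeing the data. Some genes and lists are not reported here.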

Additional observations from a re-analysis of the deposited data

Results flagged for a closer look

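In 7 of the 40 groups of 6 libraries (10 genes in 4 groups), the extreme library was farther from its neighbour than Dixon's 95% limit for 6 values allows. About 5% of groups would be marked in this way if values were normal and independent. Here the limit was applied to CPM on a linear scale, and the 10 genes share the same 24 libraries. The number marked therefore cannot be set against that 5%. For Rasd1 these were vehicle replicate 1 at 1 h (1.15 CPM), vehicle replicate 1 at 4 h (4.14 CPM) and MitoCDNB replicate 2 at 4 h (1.28 CPM). For Arl4a they were vehicle replicate 1 (24.9 CPM) and MitoCDNB replicate 2 (26.4 CPM) at 4 h. The others were Rnd1 in vehicle replicate 1 at 1 h (9.07 CPM) and Rnd3 in vehicle replicate 2 at 4 h (31.8 CPM). At 4 h, 4 of the 5 marked values were in the 2 libraries that stood apart from the rest.

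The effect of MitoCDNB differed between 1 h and 4 h in the interaction term for Rasd1 (-4.44 on the log2 scale), Rhob (-1.34) and Rgs2 (-1.42). These genes were chosen on the 1 h contrast that the term contains, so the values are a description.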

How the results depend on the processing

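The 6 genes that were higher at 1 h were higher in every fit run at 1 h, all of which reuse libraries on which the set was chosen. Of all values for single genes under fits other than single omissions, and of all values under single omissions, 14 each changed direction. The count of called genes at 1 h (909) was 244 and 256 within replicates 1 to 3 and 4 to 6, and 369 and 495 without the 4 h libraries, and for the 10 genes (6) it was 1, 2, 3 and 5. At 4 h the count (114) was 348 by DESeq2, 18 with the 4 h groups alone and 247 without the pair that stood apart, and single omissions gave 63 to 412. The interaction count (563) was 150 and 275 within the sets, with 1 of the 10 genes (of 3) in replicates 1 to 3. Between the vehicle groups (753, and 1 of the 10 genes) it was 415 with these groups alone, 177 and 309 within the sets, and 480 to 749 in single omissions (480 and 500 without vehicle replicates 6 and 5 of 1 h). There the count for the 10 genes was 0 with no filter, with these groups alone, within replicates 1 to 3 and in 7 omissions, and 2 without the pair. With MitoCDNB the time count (3940) was 2395 within replicates 1 to 3.

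Changes of direction were all in genes with no call in the same comparison. Within replicates 4 to 6, with and without the 4 h libraries, the 1 h log2 fold change was 0.313 and 0.31 for Rnd1, 0.118 and 0.116 for Rnd3, 0.0964 and 0.0949 for Rgs3, and 0.1 and 0.0984 for Rgs5, and the Rnd3 interaction was -0.519. Between the vehicle groups it was -0.0889 for Rhob, 0.0233 for Arl4a and -0.152 for Rgs2 within replicates 1 to 3, and 0.87 for Rnd3 within replicates 4 to 6. Rgs5 was at 0.0354 with MitoCDNB over time within replicates 1 to 3. Single omissions gave -0.229 to 0.142 for Rnd1 and -0.297 to 0.0512 for Rgs5 at 1 h, -0.242 to 0.499 for Arl4a at 4 h, and, between the vehicle groups, -0.433 to 0.211 for Rnd3, -0.461 to 0.0504 for Arl4a and -0.098 to 0.141 for Rgs2. The cause was not tested.

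Replicate numbers did not pair the libraries, since correlations of deviations ran from -0.0565 to 0.21 at 1 h and from -0.229 to 0.248 at 4 h, and only replicate 5 at each time correlated best with its own number. With the replicate block 835, 84 and 504 genes were called at 1 h, at 4 h and for the interaction, and 5, 0 and 3 of the 10 genes, Arl4d being the one lost. With it, at 4 h, Nras (-0.257, adjusted p = 0.0694) and Plcb4 (0.811, adjusted p = 0.0657) lost their calls, and Adcy4 (0.482, adjusted p = 0.0425) and Ednrb (0.874, adjusted p = 0.0172) kept theirs. The block was the replicate number within each time, so it gives no value for the time comparisons. Depth limits Rasd1 most, at 0.112 CPM in its lowest library.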
